A study of Mus musculus with 8 samples.

Results

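Type I interferon-stimulated genes are the genes that cells switch on after type I interferon binds its receptor. Of these, 46 were chosen by name, from general knowledge of the pathway, among the 47643 genes of the tables. Earlier results of these data were known when they were chosen. All 46 were found through their symbols in the mouse GENCODE M21 annotation. RNA was sequenced from the 3′ end in 8 libraries of peritoneal macrophages from C57 BL/6 mice. The 4 libraries of the first group (MΦ+Dimerizer) came from macrophages given 10 nM B/B Homodimerizer alone, and the 4 of the second group, called the co-culture here, came from macrophages that shared a transwell chamber (5 μm pores) with NIH 3T3 FV-hCasp8 cells and received the same dose. NIH 3T3 is a mouse fibroblast line, and in these cells the dimerizer joins an engineered human caspase-8 into its active form, which starts apoptosis. Macrophage RNA was taken 48 h after the dimerizer, and both groups carried it.

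Several features limit the groups as a model. The fibroblasts were grown from single clones, and which clone made these libraries is unstated. The macrophages were the cells that stayed attached to the plate, and the mice's age is likewise unstated. By the paper each replicate is one animal. Macrophages kept with living fibroblasts were not among the libraries used, and the fibroblasts' presence and their death cannot be told apart. Total reads were 5904441 to 8932884 in the MΦ+Dimerizer libraries and 6954153 to 11506556 in the co-culture.

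Interferon alpha and interferon beta bind the receptor IFNAR1/IFNAR2, and the kinases JAK1 and TYK2 bound to it phosphorylate STAT2. With IRF9 it takes part in the complex ISGF3, which binds the interferon-stimulated response element (ISRE) in promoters and turns on genes that sense viral nucleic acids, block viral entry and replication, and feed back on the pathway. Interferon gamma acts through a different element, the gamma-activated site (GAS), and its targets overlap with those of type I interferon. Macrophages both make and answer type I interferon, and low tonic signalling keeps many of these genes expressed without infection.

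Promoter stretches are shown for 8 of the genes, which were picked because they carry the ISRE core. Of these, 4 rose in the co-culture, and 4 well-known ones did not pass the test. The core searched was TTTC, any 2 bases, then TTTC on either strand, which reads GAAA, any 2 bases, GAAA on the other. The sequences are from RefSeq on GRCm38.p6, written 5′ to 3′ on the strand of the gene, and capitals mark each core that lies in the stretch, with overlapping cores merged.
Oas1a, chr5:120907526-120907564, minus strand, rose: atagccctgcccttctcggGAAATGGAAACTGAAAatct
Bst2, chr8:71537562-71537621, minus strand, rose: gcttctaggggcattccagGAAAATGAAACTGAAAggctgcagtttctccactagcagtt
Slfn5, chr11:82951922-82951981, plus strand, rose: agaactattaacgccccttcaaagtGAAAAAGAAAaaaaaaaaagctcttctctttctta
Trim30a, chr7:104465195-104465254, minus strand, rose: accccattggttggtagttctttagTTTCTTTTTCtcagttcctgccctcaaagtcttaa
Ifit1, chr19:34640779-34640838, plus strand, did not pass: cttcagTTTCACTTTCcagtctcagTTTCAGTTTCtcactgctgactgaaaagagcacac
Isg15, chr4:156200850-156200909, minus strand, did not pass: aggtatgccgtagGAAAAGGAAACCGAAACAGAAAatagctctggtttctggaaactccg
Rsad2, chr12:26456538-26456597, minus strand, did not pass: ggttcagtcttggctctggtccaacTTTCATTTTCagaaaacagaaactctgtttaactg
Stat2, chr10:128270251-128270310, plus strand, did not pass: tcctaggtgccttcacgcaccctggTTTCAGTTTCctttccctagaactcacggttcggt

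A promoter window (250 bases before to 50 after the start site) was found for 34 of the 46 genes. The ISRE core lay in 17 of these 34 (50%), against 3.99% of the 27025 genes of the promoter table. It lay in 7 of the 9 windows of genes that rose, in 8 of the 21 windows of genes that were tested and did not pass, and in 2 of the 4 of genes too low to test. The longer form, which begins with GTTTC or, read on the other strand, ends with GAAAC, lay in 13 windows (38.2%, against 0.944% of the table), and the GAS core (TTC, any 3 bases, GAA) lay in 7 (20.6%, against 9.55%). In Oas1a the last of 2 overlapping cores ended 5 bases before the start site, while the core of Slfn5 runs into a stretch of A, so its letters are also those of a simple repeat. A core is a run of letters, and binding was not measured. By these counts, genes that rose and genes that did not pass both carry it. The printed stretches were picked for carrying it, so they do not compare the 2 sets.

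The co-culture held more RNA of 12 of these genes and significantly less of none. Ifitm3, Bst2, Ifi27l2a, Rtp4, Oas1a and Oas2 rose at least 2-fold, while Isg15, Irf7, Rsad2, Usp18, Mx1 and the 3 Ifit genes with enough reads did not pass the test. Of the 46 genes, 42 had a mean of at least 10 normalized counts (reads divided by a factor for the depth of each library) and were tested with limma on log2(normalized count + 1) among 12029 genes. In that fit 12 of 42 passed higher at an adjusted p under 0.05 (28.6%), beside 15.0% of all tested genes, and 0 of 42 passed lower, beside 13.7%. At an unadjusted p under 0.05, 15 were higher and 0 lower, and edgeR and DESeq2 called 10 and 12 higher and 0 lower. Of the 42, 6 rose at least 2-fold, beside 3.97% of all tested genes. Because the 46 genes were chosen with earlier results of these data known, these shares are given as descriptions.

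The median log2 fold change of the 42 was 0.29, beside 0.01 over all tested genes, and 33 of 42 were above 0, beside 51.0%. The groups lay apart, with no shared range, for 8 of the 42, beside 29.4% of all tested genes, so separate groups were no more frequent here than elsewhere. These counts come from whole cultures, in which more cells of a type and more RNA per cell cannot be told apart. No gene that rose passed the filter through the co-culture alone, since the lowest MΦ+Dimerizer mean among them was 15.8 ± 5.17 normalized counts (SD, n = 4; Oas1a).

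**Figure D1:**
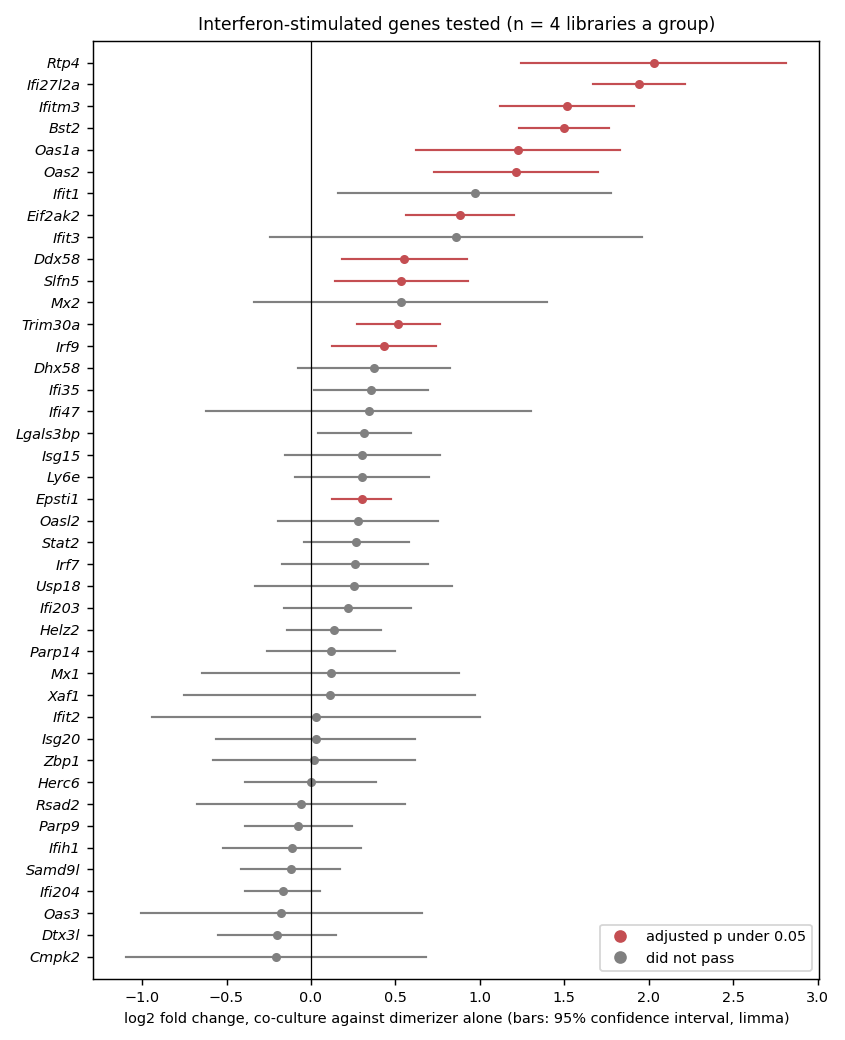
Log2 fold change (x axis) of the 42 tested genes (y axis, ordered by size), with the 95% confidence interval from limma. Red marks the 12 that passed, and the fold changes run from 2.03 for Rtp4 to -0.21 for Cmpk2, with wide intervals for Ifit2, Ifit3, Ifi47 and Cmpk2.

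Among the antiviral effectors, 3 of 9 rose, beside 15.0% of all tested genes. Ifitm3, which stops viruses from fusing with the membranes of endosomes, measured 1639.4, 1313.0, 2202.8 and 2720.2 normalized counts in MΦ+Dimerizer replicates 1 to 4 and 5456.5, 4390.1, 5685.5 and 6309.4 in the co-culture. Every co-culture library lay above every MΦ+Dimerizer library. The log2 fold change was 1.51 ± 0.18 (SE, n = 4 per group; limma, adjusted p = 4.52e-05). Bst2 (tetherin), which holds budding virus particles on the cell surface, measured 283.1, 261.8, 300 and 406.8 against 869.4, 966.5, 885.0 and 781.5. Its groups were also apart, and replicate 4 was the highest with dimerizer alone but the lowest in the co-culture. It rose by 1.5 ± 0.12 (limma, adjusted p = 2.1e-06).

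Slfn5, a member of the Schlafen family, rose by 0.53 ± 0.18 (limma, adjusted p = 0.0427), and its groups overlapped, at 150.9 to 261.1 and 201.3 to 351.0. That call was lost in edgeR (adjusted p = 0.0638), under quantile normalization (0.0661) and without any one of 6 libraries. These were MΦ+Dimerizer replicates 1 (0.119), 2 (0.105) and 4 (0.0777) and co-culture replicates 1 (0.0824), 3 (0.13) and 4 (0.0728). The other 6 effectors had log2 fold changes from -0.21 to 0.53. Rsad2 (viperin), which makes a chain-ending nucleotide, lay at 64.6 to 188.9 in MΦ+Dimerizer and 80.4 to 139.4 in the co-culture. Its log2 fold change was -0.06 with a 95% interval from -0.67 to 0.55. Mx1, a dynamin-like antiviral GTPase, lay at 13.7 to 33.3 and 12 to 33.7. For these the ranges overlapped almost entirely.

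The enzymes of the OAS family sense duplex RNA and make the oligoadenylates that activate RNase L. Of its 4 tested genes 2 rose, beside 15.0% of all tested genes. Oas1a measured 8.2, 16.8, 18.5 and 19.7 normalized counts with dimerizer alone and 31.0, 32.3, 39.7 and 44.5 in the co-culture. Oas2 measured 31.6, 21.9, 24.1 and 38.3 against 76.9, 46.6, 77.3 and 72.8. Neither pair of ranges overlapped, and co-culture replicate 2 was the low library for Oas2. The log2 fold changes were 1.22 ± 0.28 for Oas1a and 1.22 ± 0.23 for Oas2 (limma, adjusted p = 0.00529 and 0.00128).

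Oas3, with 11, 37.4, 56.5 and 29.5 against 27.6, 19.5, 31.5 and 24.9, and Oasl2, at 67.3 to 128.7 against 88.6 to 157.7, did not pass. Oas1g and Oasl1 were below the filter, at 1.3 to 5.5 against 4.5 to 10.8 and 2.7 to 9.3 against 2.3 to 11.2. Oas1a and Oas1g are close copies of each other, as are Ifit3 and Ifit3b and members of the Ifi200 family, so reads could have been split or lost between them and these values are less certain.

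Among the 7 sensors of nucleic acids, 2 rose, beside 15.0% of all tested genes. Eif2ak2 encodes PKR, a kinase that stops translation when it meets duplex RNA, and measured 130.5, 129.0, 200.9 and 149.4 against 245.8, 256.1, 338.7 and 277.1. All co-culture libraries were above all MΦ+Dimerizer libraries, and the log2 fold change was 0.88 ± 0.15 (limma, adjusted p = 0.000596). Ddx58 encodes RIG-I, the cytosolic sensor of viral RNA ends, and measured 164.9, 166.4, 227.8 and 263.4 against 325.0, 221.5, 360.1 and 295.3. Here co-culture replicate 2 lay below MΦ+Dimerizer replicates 3 and 4, so the groups overlapped.

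Ddx58 rose by 0.55 ± 0.17 (limma, adjusted p = 0.028). The call was lost without MΦ+Dimerizer replicate 1 (0.0905) or 2 (0.0718) and without co-culture replicate 1 (0.0665), 3 (0.0869) or 4 (0.0567). The related helicases Ifih1 (MDA5), at -0.11 with an interval from -0.52 to 0.29, and Dhx58 (LGP2), at 0.38 with an interval from -0.07 to 0.83, did not pass. Dhx58 did pass without MΦ+Dimerizer replicate 4, at 0.58 (adjusted p = 0.0341). Zbp1, a sensor of Z-form nucleic acid that can start necroptosis, had a log2 fold change of 0.02, and the DNA-binding Ifi203 and Ifi204 had 0.22 and -0.17.

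Of the 3 transcription factors 1, Irf9, passed higher, beside 15.0% of all tested genes. Irf9, the DNA-binding part of ISGF3, measured 377.9, 301.8, 493.5 and 458.0 against 534.1, 462.6, 638.8 and 542.1, and only MΦ+Dimerizer replicate 3 reached into the co-culture range. It rose by 0.43 ± 0.14 (limma, adjusted p = 0.0364). The call was lost in edgeR (0.0522), without MΦ+Dimerizer replicate 1 (0.0924) or 2 (0.0885), and without co-culture replicate 1 (0.0596), 3 (0.108) or 4 (0.071).

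Stat2, its partner in ISGF3, measured 148.4, 169.0, 238.0 and 199.5 against 250.4, 192.2, 250.2 and 209.0, a log2 fold change of 0.27 ± 0.14 (limma, adjusted p = 0.19). Irf7, the factor that amplifies interferon alpha production, measured 67.3, 59.3, 77.8 and 114.0 against 83.8, 74.3, 105.8 and 111.9. Its log2 fold change was 0.26 ± 0.20 (limma, adjusted p = 0.366). For Stat2 and Irf7 the ranges of the groups overlapped, and the intervals reached 0.58 and 0.69.

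The IFIT proteins bind viral RNA and keep it from being translated, and 0 of the 3 tested Ifit genes passed in limma, edgeR or DESeq2 (1, Ifit1, at an unadjusted p under 0.05). Of all tested genes, 15.0% passed higher in limma. Ifit1 measured 6.9, 14.2, 28.7 and 21.6 against 24.1, 25.5, 44.8 and 37.8, a log2 fold change of 0.97 ± 0.37 (limma, adjusted p = 0.0697). It passed without MΦ+Dimerizer replicate 3 (1.24, adjusted p = 0.0271), the one library that overlapped the co-culture. Ifit3 measured 2.7, 5.2, 13.0 and 14.7 against 10.3, 12.8, 32.6 and 9.4, and Ifit2 measured 9.6, 10.3, 37.0 and 30.5 against 13.8, 14.3, 37.6 and 16.9. For both, co-culture replicate 3 stood far above its group, and the spread within the groups left log2 fold changes of 0.86 ± 0.51 and 0.03 ± 0.45. Ifit3b, below the filter, lay at 0 to 2.8 against 1.1 to 6.1.

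In the ISG15 system, which attaches the ubiquitin-like protein ISG15 to targets, 0 of 3 passed in limma, edgeR or DESeq2, and 0 at an unadjusted p under 0.05. Isg15 itself measured 30.2, 33.5, 44.4 and 40.3 against 33.3, 42.1, 51.9 and 59.3 (log2 fold change 0.30, 95% interval -0.15 to 0.76). Usp18, which removes ISG15 and restrains the receptor, had 0.25 (interval -0.33 to 0.83), and the ligase gene Herc6 had 0.00 (interval -0.39 to 0.39). The PARP group likewise had 0 of 4 past each of these tests, also unadjusted. Parp9 and Dtx3l, which work as a pair, had -0.08 and -0.20, and Parp14 and Helz2 had 0.12 and 0.14. The intervals of these 4 genes all included 0. For both groups the share of all tested genes that passed higher in limma was 15.0%.

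Of the other induced genes, 4 of the 9 tested rose, beside 15.0% of all tested genes. Rtp4, a chaperone of membrane receptors, measured 48.1, 49.0, 181.5 and 156.3 with dimerizer alone and 340.0, 327.4, 437.4 and 397.2 in the co-culture. MΦ+Dimerizer replicates 1 and 2 were far below replicates 3 and 4, and all 4 were below the co-culture. With this spread the log2 fold change was 2.03 ± 0.36 (limma, adjusted p = 0.00101). Ifi27l2a, which encodes a small interferon-induced membrane protein, measured 79.7, 68.4, 98.1 and 77.6 against 291.7, 304.1, 360.1 and 294.0. The libraries within each group were close and the groups were far apart, a rise of 1.94 ± 0.13 (limma, adjusted p = 3.68e-07).

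Trim30a, a tripartite-motif protein that restrains inflammatory signalling in the mouse, rose by 0.52 ± 0.11 (limma, adjusted p = 0.00401). Its ranges, 1077.0 to 1512.9 and 1506.4 to 1987.7, overlapped slightly, MΦ+Dimerizer replicate 3 being above co-culture replicate 2. Epsti1 rose by 0.30 ± 0.08 (limma, adjusted p = 0.0135), from 566.1 to 653.7 up to 669.9 to 799.7. Without co-culture replicate 4 its adjusted p was 0.0513.

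Lgals3bp, a secreted galectin-binding protein, had 0.32 ± 0.13 (limma, adjusted p = 0.0809), and passed without MΦ+Dimerizer replicate 4 (0.43, adjusted p = 0.017). Ifi35, Ly6e, Ifi47 and Xaf1 had log2 fold changes of 0.35, 0.30, 0.34 and 0.11 and did not pass. Ifi44 was below the filter, at 1.4 to 10.2 against 2.3 to 8.1.

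**Figure D2:**
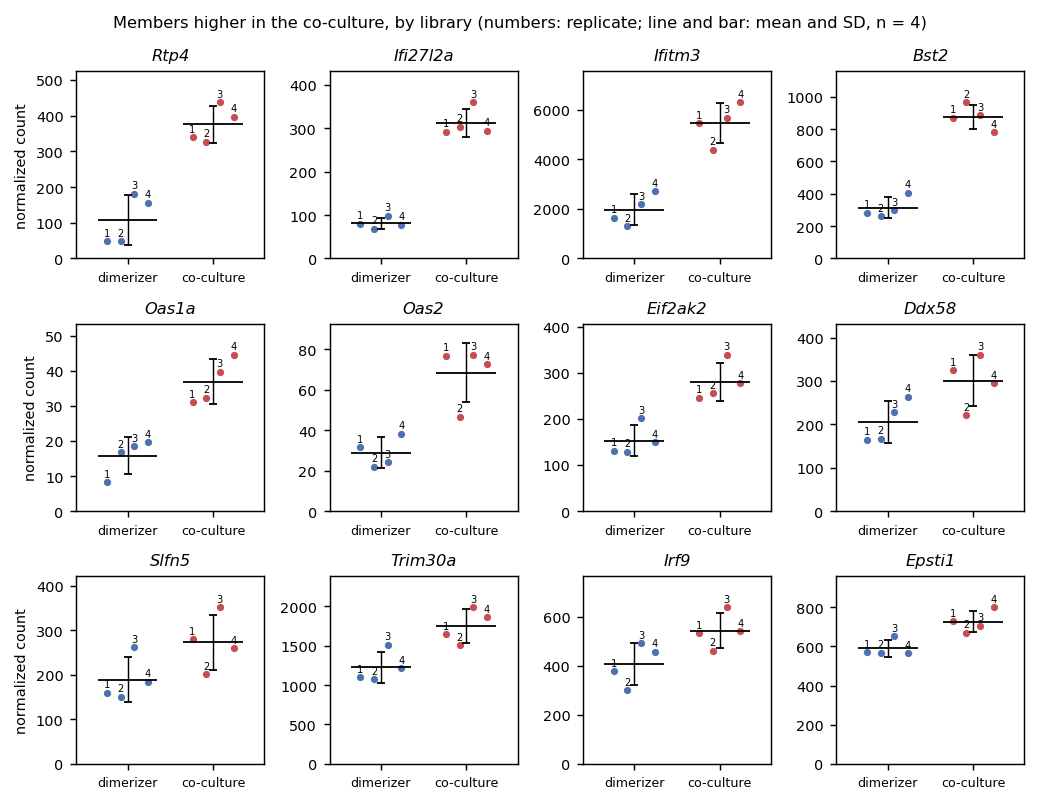
Normalized count (y axis, from 0) of the 12 genes that rose, in each library; numbers give the replicate, black lines the mean and bars the SD (n = 4). The groups are apart for Rtp4, Ifi27l2a, Ifitm3, Bst2, Oas1a, Oas2, Eif2ak2 and Epsti1 and overlap for Ddx58, Slfn5, Trim30a and Irf9.

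Within the MΦ+Dimerizer group the genes moved together from library to library. In 34 of the 42, replicates 3 and 4 were both above replicates 1 and 2, beside 19.4% of all tested genes, and in 0 of the 42 they were both below, beside 20.0%. This pattern was described after the values were seen. MΦ+Dimerizer replicates 1 and 2 also had the fewest reads of all libraries (5904441 and 6420850) and a lower mitochondrial share of reads (6.64% and 6.34%) than replicates 3 and 4 (7.52% and 7.32%), and their part in the pattern was not tested. Replicate 3 was the highest library for 26 genes and replicate 4 for 13, while replicates 1 and 2 were each the lowest for 20. In the co-culture, replicate 3 was the highest for 30 of 42, beside 23.8% of all tested genes, and replicate 2 the lowest for 25, beside 26.8%. The mitochondrial share was 7.38% in co-culture replicate 3 and 5.59% to 6.73% in the other co-culture libraries.

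The spread was wider with dimerizer alone. The median SD of the log2 values was 0.41 there and 0.25 in the co-culture, beside 0.17 in each group over all tested genes. The SD was larger with dimerizer alone for 35 of the 42, beside 49.5% of all tested genes. The median ratio of the highest to the lowest library was 1.91 with dimerizer alone and 1.46 in the co-culture.

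The 5 genes with the widest spread show the shape of it. Ifi47, an interferon-induced GTPase, measured 129.2, 96.7, 583.3 and 459.9 with dimerizer alone and 277.9, 282.4, 341.8 and 325.0 in the co-culture. All 4 of the latter lay between the low and the high MΦ+Dimerizer libraries, and the group means, 317.3 ± 241.6 and 306.8 ± 31.6 (SD, n = 4), were close. Cmpk2, a mitochondrial nucleotide kinase gene next to Rsad2, measured 17.9, 38.7, 64.8 and 62.9 against 19.5, 38.3, 69.2 and 30.3. Xaf1, which binds the apoptosis inhibitor XIAP, measured 26.1, 15.5, 44.4 and 41.3 against 18.4, 21.8, 66.1 and 38.4. For Cmpk2 and Xaf1, as for Ifit2 and Ifit3 above, co-culture replicate 3 was the high library.

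**Figure D3:**
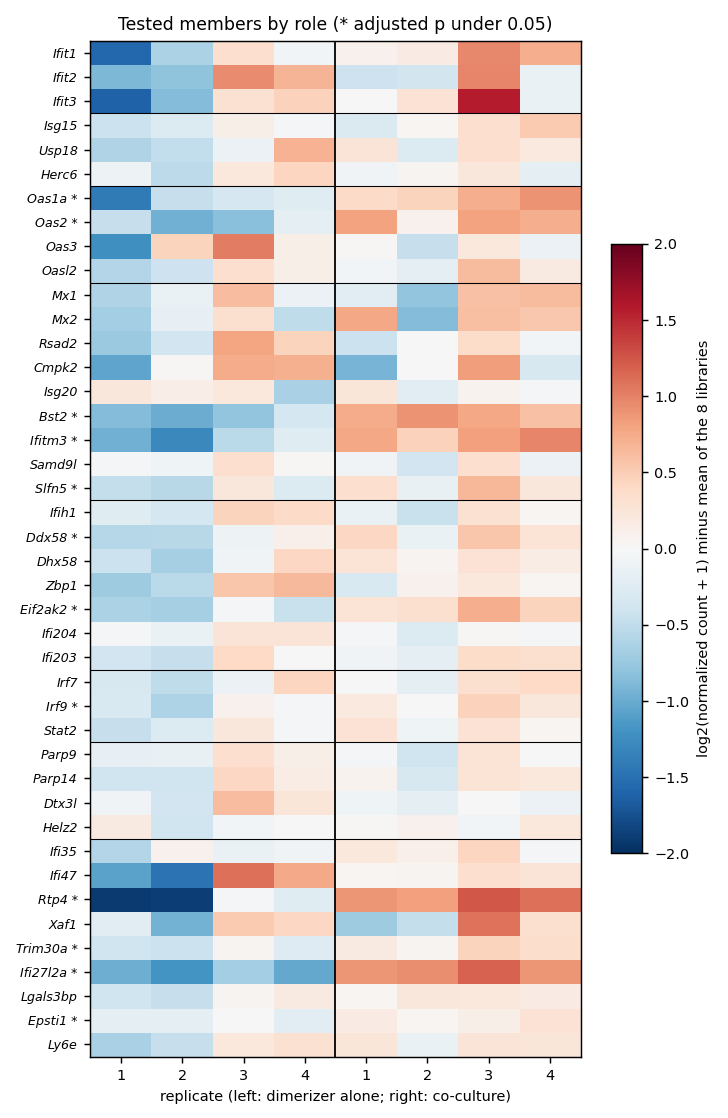
Log2(normalized count + 1) minus its mean over the 8 libraries (colour, limits -2 and 2) for the 42 tested genes, grouped by role; columns are replicates 1 to 4 of each group, and stars mark the 12 that rose. MΦ+Dimerizer replicates 1 and 2 are low in most rows, and replicates 3 and 4 reach or pass the co-culture for Ifi47, Zbp1 and Rsad2 but not for Bst2, Ifitm3 or Ifi27l2a.

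Summed over the 46 genes, the normalized counts were 11396, 10973, 17315 and 16879 with dimerizer alone and 20236, 17701, 22658 and 21927 in the co-culture. The ranges did not overlap, but MΦ+Dimerizer replicate 3 was close to co-culture replicate 2, and under upper-quartile scaling it lay above it (17783 against 17728), so that the ranges overlapped. The means were 14141 ± 3423 and 20630 ± 2201 (SD, n = 4), a log2 ratio of 0.54, and leaving out any one library gave 0.44 to 0.66. The 12 genes that rose, chosen by this same comparison, summed to 4125 to 6258 and 9385 to 11934. The 30 genes that did not pass were set apart by this comparison too, so a small ratio is built in. They summed to 6790, 6832, 11115 and 10606 against 9395, 8295, 10755 and 9967, a log2 ratio of 0.12, and there MΦ+Dimerizer replicate 3 was above all co-culture libraries. Without Ifitm3 and Ly6e, which had the highest counts, the ratio over all genes was 0.33.

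Reads counted for the interferon genes themselves, 48 h after the dimerizer, were close to absent. Of the 18 type I interferon genes found in the tables, Ifnb1 among them, 17 had 0 reads in all 8 libraries (66145367 reads in total). A count of 0 allows up to 3 reads, of 5904441 in the shallowest library and of 11506556 in the deepest, counting error only. This bound does not cover reads lost between genes of similar sequence. Ifnk had 1 read in each of MΦ+Dimerizer replicate 1 and co-culture replicates 2 and 4. Ifng, the interferon gamma gene, had 3 reads in MΦ+Dimerizer replicate 4 and 0 elsewhere.

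The receptor genes were expressed, and 0 of the 5 tested passed in limma, edgeR or DESeq2, with 1 lower at an unadjusted p under 0.05 in limma (Ifngr2). Of all tested genes, 15.0% passed higher and 13.7% lower in limma. Ifnar1 lay at 379.2 to 476.8 against 372.5 to 492.7 and Ifnar2 at 1688.3 to 1794.6 against 1569.5 to 1910.0, and both sets of ranges overlapped. Jak1 and Tyk2, the kinases of the type I receptor, had log2 fold changes of -0.08 and -0.12 and did not pass.

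Jak2, the kinase of the interferon gamma receptor, fell by 0.45 on the log2 scale (SE 0.09; limma, adjusted p = 0.00196). Its values were 384.8 to 473.1 with dimerizer alone and 287.6 to 318.3 in the co-culture, with no overlap.

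Other IRF factors went the opposite way to Irf9, with 4 of 6 lower and 0 higher in limma, edgeR and DESeq2 (0 higher at an unadjusted p under 0.05). Of all tested genes, 13.7% were lower and 15.0% higher in limma. Irf1, which responds strongly to interferon gamma, measured 1147.4, 1068.0, 2506.5 and 2226.9 against 914.2, 633.8, 745.7 and 735.0. All co-culture libraries were below all MΦ+Dimerizer libraries, a log2 fold change of -1.11 ± 0.24 (limma, adjusted p = 0.00327). Irf8, needed for myeloid development, lay at 2918.9 to 3196.8 against 1985.5 to 2623.2 (-0.45 ± 0.08, limma, adjusted p = 0.00132), and Irf5 had -0.44 (limma, adjusted p = 0.00254). Irf2 had -0.36 (limma, adjusted p = 0.0358), and its adjusted p was 0.0551 to 0.101 without MΦ+Dimerizer replicate 1, 3 or 4 or co-culture replicate 2 or 4.

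Upstream of the interferons, 3 of 12 sensing genes were higher and 1 lower, beside 15.0% and 13.7% of all tested genes. Cgas, the DNA sensor that makes cyclic GMP-AMP, measured 70.1, 101.9, 114.8 and 92.4 against 163.1, 196.0, 204.5 and 225.2, with no overlap and a rise of 1.06 ± 0.15 (limma, adjusted p = 0.000198). Tlr3, the endosomal receptor for duplex RNA, rose from 82.4 to 100 up to 120.9 to 130.9 (0.47 ± 0.12, limma, adjusted p = 0.00888). Tmem173 (STING), the adaptor that acts after cGAS, had 0.15 and did not pass. Tlr7 (0.20, limma, adjusted p = 0.0407) and the TLR3 adaptor Ticam1 (-0.29, limma, adjusted p = 0.0482) had calls that were lost in 10 and 11 of 17 alternatives. Leaving out any one library except co-culture replicate 1 raised the adjusted p of Tlr7 to between 0.0509 and 0.101, and any one except MΦ+Dimerizer replicate 1 that of Ticam1 to between 0.0691 and 0.112.

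Among 12 genes that restrain the pathway, 1 passed, and it was lower, beside 13.7% of all tested genes. This was Samhd1, which breaks down deoxynucleotides. It measured 2437.7, 2414.5, 3513.9 and 3214.5 against 1897.3, 1673.1, 1964.3 and 1922.4 and fell by 0.62 on the log2 scale (SE 0.12; limma, adjusted p = 0.00141). Its MΦ+Dimerizer libraries showed the same low replicates 1 and 2. Trex1 is listed at 0 in every library. The enzymes of ISG15 conjugation, Uba7 and Ube2l6, had -0.14 and 0.06 and did not pass.

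Genes induced mainly by interferon gamma were taken as a related list. Of 12 tested GTPases of the GBP and IRG families, a list that shares Ifi47 with the 46 genes, 0 were higher in limma, edgeR or DESeq2 (0 at an unadjusted p under 0.05) and 1 was lower, and the median log2 fold change was -0.14, with 5 of 12 above 0. Of all tested genes, 15.0% were higher and 13.7% lower in limma. The difference between this list and the 46 genes was not tested. The lower genes were 2 in edgeR and without MΦ+Dimerizer replicate 2. In 12 of 12, MΦ+Dimerizer replicates 3 and 4 were above replicates 1 and 2, beside 19.4% of all tested genes. Gbp2, a GTPase that attacks the vacuoles of pathogens, measured 136.0, 170.3, 824.1 and 1142.9 against 80.4, 89.4, 121.1 and 107.2, a log2 fold change of -1.96 ± 0.54 (limma, adjusted p = 0.0153). Iigp1, named after its values were seen, measured 9.6, 10.3, 890.7 and 448.1 against 66.6, 77.3, 161.7 and 86.3. Its co-culture values lay between the low and the high MΦ+Dimerizer libraries, and the 95% interval of its log2 fold change ran from -2.37 to 2.69. The sums over the list were 1073, 895.1, 4605 and 4025 against 1530, 1241, 1766 and 1580, so every co-culture sum lay above MΦ+Dimerizer replicates 1 and 2 and below replicates 3 and 4.

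For antigen presentation by MHC class I, which both interferon types raise, 0 of 20 tested genes were higher in limma (1, Calr, at an unadjusted p under 0.05; 0 in edgeR and 1 in DESeq2) and 8 were lower, with a median log2 fold change of -0.34. Of all tested genes, 15.0% were higher and 13.7% lower in limma. With 1 library left out, 6 to 11 of the MHC class I genes were lower. In 17 of the 20, MΦ+Dimerizer replicates 3 and 4 were both above replicates 1 and 2, beside 19.4% of all tested genes. The SD of the log2 values was larger with dimerizer alone for 18 of the 20, beside 49.5%. H2-D1, a classical class I heavy chain, lay at 13010.4 to 15609.7 against 7515.6 to 9599.2 (-0.82 ± 0.10, limma, adjusted p = 3.8e-05). Tapbp, the peptide-loading factor tapasin, lay at 2485.5 to 3474.9 against 1542.8 to 1717.0 (-0.80 ± 0.10, limma, adjusted p = 4.3e-05). Neither gene's groups overlapped.

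**Figure D4:**
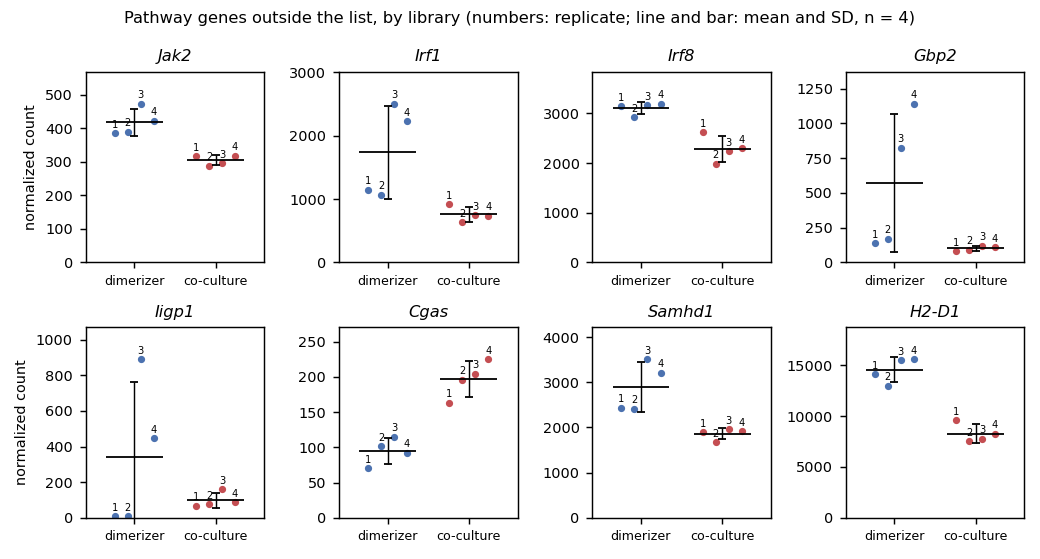
Normalized count (y axis, from 0) of 8 pathway genes outside the list in each library; numbers give the replicate, black lines the mean and bars the SD (n = 4, drawn down to 0 at the lowest). MΦ+Dimerizer replicates 3 and 4 are above replicates 1 and 2 for every gene shown except Cgas, most widely for Gbp2 and Iigp1. The groups are apart for every gene shown except Iigp1.

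Transcripts of other cell types varied between the same libraries. The 7 macrophage markers summed to 202842 to 210137 with dimerizer alone and 228059 to 255757 in the co-culture, and all 7 were read in every library. Lyz2, with group means of 163684 and 198256, made up most of the sum and did not pass. In limma 2 of the 7 passed higher (Adgre1 and Itgam) and 1 lower (Mertk), beside 15.0% and 13.7% of all tested genes. Of the 7 log2 fold changes, 4 were above 0. The 6 B cell markers, led by Ighm and Igkc, summed to 3170, 1125, 5051 and 7650 against 4147, 3251, 8373 and 6556, low in MΦ+Dimerizer replicates 1 and 2 and co-culture replicates 1 and 2. The 6 mast cell markers, led by Cpa3 and Tpsb2, summed to 1163, 574.0, 1994 and 3750 against 984.3, 529.4, 1137 and 1504. In both lists the high MΦ+Dimerizer libraries were replicates 3 and 4, as for the interferon-stimulated genes. Of the 6 mast cell markers 1 (Tpsab1) was lower, beside 13.7% of all tested genes, and 4 were lower without MΦ+Dimerizer replicate 2.

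Plasmacytoid dendritic cells are strong makers of type I interferon. Of their 7 markers Klk1 had 0 reads in every library, 5 were tested and 0 passed in limma, edgeR or DESeq2 (2, Ly6d and Spib, at an unadjusted p under 0.05). Without MΦ+Dimerizer replicate 3 or 4 or co-culture replicate 2, 1 was higher. Of all tested genes, 15.0% were higher in limma with all libraries. The sums, led by Ly6d and Spib, were 104.5 to 334.1 against 253.1 to 532.0. Ly6d and Spib had log2 fold changes of 0.79 and 0.98 and Pacsin1 and Ccr9 had -0.84 and -0.25, none past the test, while the defining marker Siglech had 5 reads over the 8 libraries. T and NK cells, the main sources of interferon gamma, had marker sums of 28.4 to 80.6 against 42.8 to 105.8, led by Cd2 and Trac. Mean normalized counts were 22.5 and 42.6 for Cd2 but 14.4 and 12.7 for Trac, and Cd3e, Cd3d, Cd3g and Nkg7 all had lower means in the co-culture. Fibroblast markers, led by Col1a2 and Sparc, were lower in the co-culture for 6 of 7 tested genes, beside 13.7% of all tested genes. Their sums were 6827 to 10396 against 2848 to 4297. The part of these cells in the levels of the interferon-stimulated genes was not tested.

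**Figure D5:**
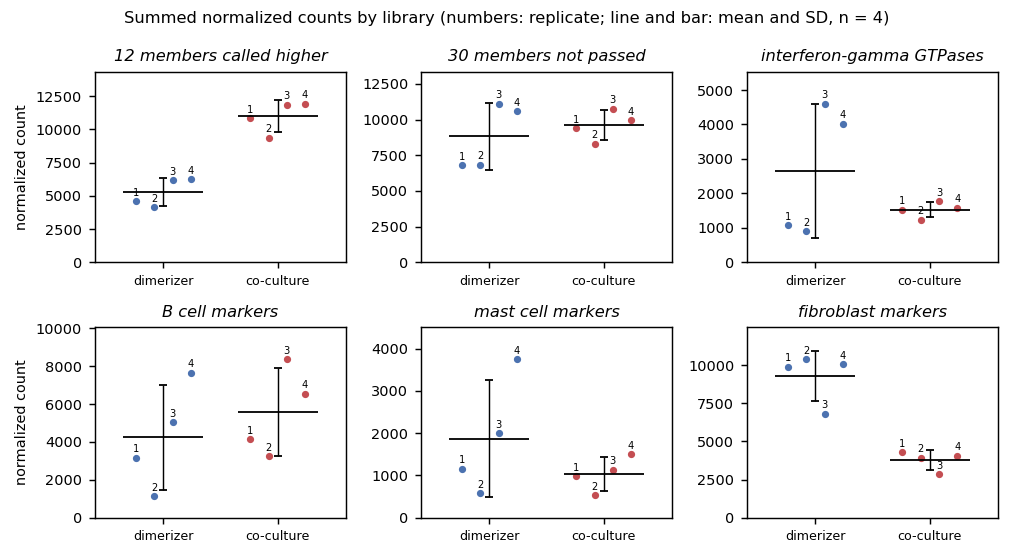
Summed normalized counts (y axis, from 0) in each library for the 12 genes that rose, the 30 that did not pass, the GTPases induced by interferon gamma, and markers of B cells, mast cells and fibroblasts; numbers give the replicate, black lines the mean and bars the SD (n = 4). The 12 and the 30 genes were set apart by the comparison that their panels show. In the panels of the 30 genes, the GTPases and the mast cell and B cell markers, MΦ+Dimerizer replicates 3 and 4 are above replicates 1 and 2.

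Whether the counting used strand was not stated. Reads of a gene and of another that overlaps it on the opposite strand may therefore not have been told apart. In the annotation 14 of the 46 genes overlap another gene on the opposite strand, among them Rtp4 and Irf7, and 4 overlap one on the same strand, Irf9, Ifi47, Ifi203 and Herc6.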

How the data were processed

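QuantSeq 3′ mRNA libraries with unique molecular identifiers were compared between 4 MΦ+Dimerizer and 4 co-culture samples, grouped by the sample labels. The authors used version 2.3.1 of Lexogen's QuantSeq FWD UMI pipeline for mapping (GRCm38) and version 1.3.1 of its DE pipeline. STAR, HTSeq and DESeq2 are named in the submitters' processing notes. The annotation release was not given in the sources used. The deposited values are normalized counts, a signal equal to whole reads divided by a size factor of the library (100% whole within 0.001 reads), which equals the median-of-ratios factor. Both groups therefore share one scale, which assumes that most genes did not change. Symbols came from GENCODE M21 (99.1% of 47643 genes matched).

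The test was limma 3.58.1 (R 4.3.3, variance trend on) of log2(normalized count + 1) for 12029 genes with a mean of at least 10, with Benjamini-Hochberg adjustment over all of them and calls at 0.05. This scale understates fold changes of low genes. Standard errors and 95% intervals are limma's. Alternatives were a pseudocount of 0.5 or 5, a filter at a mean above 30 or none, quantile and upper-quartile scaling, the recovered whole reads in edgeR 4.0.16 (TMM) and DESeq2 1.42.0, the replicate number as a block, each library left out, and an adjusted p under 0.01.

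The 46 genes, the other lists and the rules below were chosen with earlier results of these data known. Given by library were the 8 risen genes with the largest rise, Irf7, Irf9, Stat2 and the 5 with the largest within-group SD; from each pathway list the 2 of smallest adjusted p, with fixed receptor and kinase genes, and from each marker list the 2 most abundant. Some genes of these lists are not reported here. Further genes were named as examples after their values were seen. The fit was tested on simulated data in which few genes were changed. It recovered 49.25% of 1.5-fold, 77.61% of 2-fold and 96.97% of 4-fold changes, and called 12 unchanged genes. Libraries within a group gave chi-square values of 4.05 to 14.5 per degree of freedom, where sampling noise alone gives 1, and none was a duplicate. Promoter windows were from RefSeq (GRCm38.p6), and motifs were searched with Python 3.11.15.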

Additional observations from a re-analysis of the deposited data

Results flagged for a closer look

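Among 94 groups of 4 libraries checked, 6 had a library whose gap to its nearest neighbour exceeded Dixon's critical value for 4 samples. Chance flags about 1 group in 20. Co-culture replicate 3 stood out at the high end for Ifit2, at 37.6 normalized counts (next 16.9), and for Ifit3, at 32.6 (next 12.8). Co-culture replicate 2 stood out at the low end for Oas2, at 46.6 (next 72.8), and for Ly6e, at 2415.8 (next 3111.9). With dimerizer alone, replicate 4 was low for Isg20, at 10.8 (next 19.3), and replicate 3 was high for Epsti1, at 653.7 (next 570.3). Without co-culture replicate 2, Oas2 kept its call, as it did in all 17 alternatives with the threshold of 0.05.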

How the results depend on the processing

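Across the alternatives the number of interferon-stimulated genes called higher ran from 8 (adjusted p under 0.01) to 15, with 8 to 13 when 1 library was left out, and 0 were called lower in any of them. Ifitm3, Bst2, Ifi27l2a, Rtp4, Oas2, Eif2ak2 and Trim30a passed in each alternative with the threshold of 0.05, and Oas1a in all 16 that tested it. No direction of a called gene reversed. The labels give both groups replicate numbers 1 to 4, but no source says that a number marks a shared animal. The deposited column names of same-numbered libraries also open with the same digit in both groups. The deviations of same-numbered libraries correlated at 0.0884, 0.341, 0.293 and 0.194, and each library correlated best with its own number. Both are hints of a pairing that no source states, and the main test took the libraries as unpaired. With the replicate block, 15 of the genes were called higher, with Ifit1, Ifi203 and Lgals3bp added. The block also gave 2 lower GTPases (1 without it), 11 lower and 2 higher MHC class I genes (8 and 0 without it), 5 lower IRF factors (4 without it), 1 lower receptor (0 without it) and 2 lower sensing genes (1 without it). Among markers it gave 4 higher for B cells (1 without it), 2 higher for plasmacytoid dendritic cells (0 without it), 1 higher for T and NK cells (0 without it), and 4 lower and 1 higher for mast cells (1 and 0 without it). For macrophages it gave 3 higher and 3 lower (2 and 1 without it). For monocytes it gave 2 higher and 1 lower (0 and 0 without it), and for conventional dendritic cells 3 higher (2 without it). The cause of these differences was not tested. With 4 libraries a group, genes that did not pass may still differ, as the width of their intervals shows.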

Other observations

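The ISRE core is not limited to the 46 genes. Of the 9082 tested genes with a promoter window, 350 (3.85%) held it. Of these, 19.4% were called higher and 14% lower in the co-culture, beside 15.0% and 13.7% of all tested genes. The latter shares are over all 12029 tested genes, including those without a window. With the longer form, 98 tested genes held it and 25.5% of them were higher and 13.3% lower. With the GAS core, 15.1% of 733 genes were higher and 13.1% lower. These shares include the interferon-stimulated genes themselves and are given as descriptions.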
